A study of Daphnia magna with 24 samples.

Results

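Transcript levels were compared between whole Daphnia magna, a freshwater crustacean used in aquatic toxicology, exposed to long silica-coated silver nanowires (L-SiO2-NW) and animals exposed to dissolved silver (Ag+). The comparison rests on the arrays titled for those exposures, 4 per exposure, which make 8 of the 24 arrays of the series, and it covers every one of the 14338 array features. Both exposures lasted 24 h and each was given at 0.1 of its own LC50, the median lethal concentration, so silver concentration and form of silver cannot be told apart. Each sample came from a pool of about 20 animals, the tissue is the whole organism, and no strain or age of the animals is given in the sources used here. The animals were grown in COMBO medium, and unexposed animals in medium alone (Control, 4 arrays), short silica-coated nanowires (S-SiO2-NW, 4 arrays) and long nanowires coated with polyvinylpyrrolidone (L-PVP-NW, 4 arrays) are used here only to place the difference. Total RNA, 300 ng per sample, was labelled with Cy3 and hybridised to single-colour arrays.

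Dissolved silver is toxic to freshwater crustaceans mainly because the ion enters through sodium uptake sites of the gill-like epithelia and disturbs salt balance. A nanowire carries silver as metal, and a silica shell lies between that metal and the water. Daphnids filter particles into the gut, where trypsins, chymotrypsins and carboxypeptidases digest them, and adult females load yolk made from vitellogenin into their eggs. In Daphnia the vitellogenin chain carries a superoxide dismutase-like domain, and hemoglobin circulates freely in the hemolymph.

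The results turn on a small number of probes, printed here 5′ to 3′ in lower case as the authors' deposited table lists them. They come from the yolk, hemoglobin, ribosome, muscle and gut groups described below and no part of a sequence is marked. The table does not state their strand or position.
DM02775P1, vitellogenin fused with superoxide dismutase: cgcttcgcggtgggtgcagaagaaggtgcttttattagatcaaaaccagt
DM02255P1, vitellogenin fused with superoxide dismutase: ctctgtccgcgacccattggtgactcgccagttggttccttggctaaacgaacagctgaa
DM01546P3, vitellogenin fused with superoxide dismutase: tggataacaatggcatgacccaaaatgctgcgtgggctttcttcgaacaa
DM01561P3, hemoglobin: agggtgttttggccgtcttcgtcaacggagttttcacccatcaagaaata
DM01998P1, hemoglobin 4: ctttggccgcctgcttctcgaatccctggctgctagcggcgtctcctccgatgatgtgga
DM02282P1, ribosomal protein L44: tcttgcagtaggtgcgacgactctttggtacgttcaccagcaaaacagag
DM00704P3, muscle myosin heavy chain: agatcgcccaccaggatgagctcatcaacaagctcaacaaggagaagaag
DM02109P1, chymotrypsin: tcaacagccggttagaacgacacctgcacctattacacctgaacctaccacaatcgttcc
DM01846P3, trypsin: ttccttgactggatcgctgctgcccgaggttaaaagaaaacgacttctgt
DM02974P1, papain family cysteine protease: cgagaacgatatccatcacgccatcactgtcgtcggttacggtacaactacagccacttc
The longest run of bases shared by any pair of the 11 yolk probes, on either strand, was 8, and among the 5 hemoglobin probes it was 9. The features of these families were therefore read by different stretches of sequence. Among the 25 gut enzyme probes the longest shared run was 14 bases, between the trypsin features DM01947P1 and DM06036P1.

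Median intensities were 61 to 70 on the L-SiO2-NW arrays and 62 to 64 on the Ag+ arrays, on a scale with a ceiling of 65535. A feature is called dim on an array where its intensity is below 2 times the lower quartile of that array, and 30 to 35.8% of features were above that limit on L-SiO2-NW arrays and 28.3 to 33.1% on Ag+ arrays. Replicates correlated at r = 0.937 to 0.971 in L-SiO2-NW and 0.918 to 0.96 in Ag+, over features. The 1st percentile of intensity, the array floor, was 41 to 43 in L-SiO2-NW and 45 to 46 in Ag+ with no overlap, and 4 to 6 features lay at the ceiling on L-SiO2-NW arrays against 0 on every Ag+ array. A difference of slide or scan between these groups and the exposure cannot be told apart. On Ag+ 2, 310 features had no value. Trypsin DM01846P3 of the gut, compound eye opsin DM02717P2, paramyosin DM02599P2 of muscle and vitellogenin DM02255P1 were above the dim limit on all 8 arrays, which are labelled whole organism.

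In animals given L-SiO2-NW 8 of 11 yolk features, 10 of 27 ribosomal protein features and 5 of 19 muscle and cytoskeleton features were higher than in animals given Ag+, and 7 of 25 digestive enzyme features were lower while 1 was higher. The other members of these lists did not pass. Of all 14338 features, 1082 passed (7.55%; limma, adjusted p under 0.05), of which 444 were higher in L-SiO2-NW (3.1%) and 638 lower (4.45%). Differences among them ran from −6.14 to 8.13 on the log2 scale, and 356 exceeded 2-fold, 193 of them higher and 163 lower. The arrays of the groups did not overlap for 1936 features (13.5%), and 924 of the 1082 were among these. In 200 of the passing features all 8 arrays were dim, and their median absolute difference was 0.30. Higher features made up 41% of those that passed, but 66.9% when arrays were scaled to a common 75th percentile over bright features, a scaling that moved the median of all features by 0.14. The total was 580 without Ag+ 3, 688 without Ag+ 4, 619 with L-SiO2-NW 2 left out and 639 with L-SiO2-NW 3 left out, and with the array floor as covariate it was 376. The plot of difference against level shows where these features lie.

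**Figure D1:**
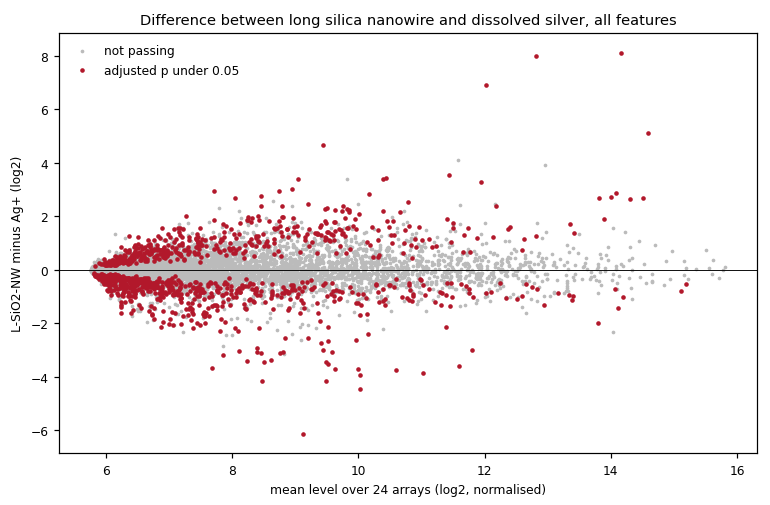
Each point is 1 of 14338 features, with its mean level over all 24 arrays (log2, normalised) on the x axis and the log2 difference L-SiO2-NW minus Ag+ on the y axis. The 1082 features in red passed; they reach 8.13 above 0 and −6.14 below it, and many small differences lie at the dim left end.

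Names come from the authors' table, where 493 of the 14338 features have a described database match with an expectation value of 0.001 or less and 296 of those name a protein. Of the 493, 105 passed, 61 higher and 44 lower, and of the 296, 67 passed, 43 higher and 24 lower. The authors chose the features of that table on these samples, so the counts over gene lists that follow are not independent evidence and do not cover every such gene on the array. List members come only from the 493, where calls were more frequent than among all features. The 61 higher and 44 lower of 493 are therefore the closer background for the list counts between L-SiO2-NW and Ag+. For the comparisons with Control the calls among the 493 were not counted. The authors' table holds log2 ratios over medium from these samples, so the counts of all features given beside those lists are not a like background. Each difference below is L-SiO2-NW minus Ag+ on the log2 scale with its SE, from n = 4 arrays per group unless stated, and adjusted p-values are limma's over all features.

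Most vitellogenin features were higher after L-SiO2-NW than after Ag+, 8 of the 11 in the yolk list. The feature for the yolk precursor vitellogenin fused with superoxide dismutase that differed most, DM02775P1, read 9089, 26733, 27496 and 2431 on L-SiO2-NW arrays 1 to 4, against 184, 57, 56 and 55 on Ag+ arrays 1 to 4. Control arrays read 17536, 42662, 33190 and 53310. The groups did not overlap: every Ag+ array was low, L-SiO2-NW 4 was the lowest of its group, and Ag+ 1 was the only Ag+ array above the dim limit. The difference was 6.90 ± 0.89 (adjusted p = 0.00017), and because 3 Ag+ arrays were dim it is given as at least 79.8-fold (6.32), on the normalised scale. From bulk RNA, fewer cells of a type and less RNA per cell cannot be told apart.

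The feature DM02255P1, with the same description, had intensities of 15265, 10024, 10450 and 12935 in L-SiO2-NW and 1557, 1718, 661 and 641 in Ag+, a difference of 3.55 ± 0.68 (adjusted p = 0.00305). DM01546P3 had 1825, 1435, 2248 and 2024 against 241, 172, 108 and 124, a difference of 3.39 ± 0.60 (adjusted p = 0.00185). In neither feature did any array of one exposure reach the range of the other. DM00120P2 stood at 365 to 1244 in L-SiO2-NW and was dim on every Ag+ array (51 to 80), with 2.93 ± 0.57 (adjusted p = 0.00366, at least 4.95-fold). The other features of the family that passed were DM00260P2 (1.86 ± 0.36), DM01774P1 (1.58 ± 0.37), DM01555P3 (1.57 ± 0.39) and DM05876P2 (1.54 ± 0.30), with adjusted p from 0.00372 to 0.0163. DM01555P3 and DM05876P2 were dim on every Ag+ array, which makes their differences at least 1.94-fold and 1.99-fold. DM01774P1 did not pass without L-SiO2-NW 2, and DM01555P3 not without Ag+ 3, L-SiO2-NW 2 or L-SiO2-NW 3.

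Of the 11 vitellogenin and yolk features 8 were higher in L-SiO2-NW and 0 lower, against 3.1 and 4.45% of all features. Of the 493 matched features, from which the list was drawn, 61 were higher and 44 lower. The median of the 11 was 1.66, against 0 over all features. Vitellogenin DM01857P2 had 1.66 ± 0.78 (adjusted p = 0.237) with no value on Ag+ 2, and DM01556P2 had 1.33 ± 0.81 (adjusted p = 0.394). The second of these was the brightest of the family, at 26556 to 52725 in L-SiO2-NW and 7806 to 19523 in Ag+. A homolog of vitelline membrane outer layer 1 (DM02106P1), named for an egg envelope protein of birds, had the opposite sign, −2.63 ± 0.88 (adjusted p = 0.0782). Summed over the 10 features with values on all arrays, yolk intensity was 67042 to 80852 in L-SiO2-NW, 15052 to 22187 in Ag+ and 29651 to 94293 in Control. With the array floor as a covariate 1 of the 11 passed, DM02775P1, and the median was 1.68.

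Set beside Control, which both comparisons share, 7 of the 11 yolk features were lower in Ag+ (median −1.63) and 0 passed in L-SiO2-NW (median 0.32). The misses do not show equal levels, as DM01556P2 had 1.78 (adjusted p = 0.281) and DM02106P1 −2.78 (adjusted p = 0.115) in L-SiO2-NW. For DM02775P1 the difference from Control was −8.51 ± 0.89 in Ag+ (adjusted p = 1.32e-05) and −1.62 ± 0.89 in L-SiO2-NW (adjusted p = 0.38). For DM02255P1 it was −2.47 ± 0.68 in Ag+ (adjusted p = 0.0153) and 1.08 ± 0.68 in L-SiO2-NW (adjusted p = 0.454). Over all 14338 features 17.8% passed for Ag+ against Control (1478 higher, 1079 lower). For L-SiO2-NW against Control 0.962% passed (85 higher, 53 lower). The authors' deposited table gives DM02775P1 a log2 ratio of −9.5 for silver over medium, and DM02255P1 −2.6 for silver and 1.2 for L-SiO2-NW.

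**Figure D2:**
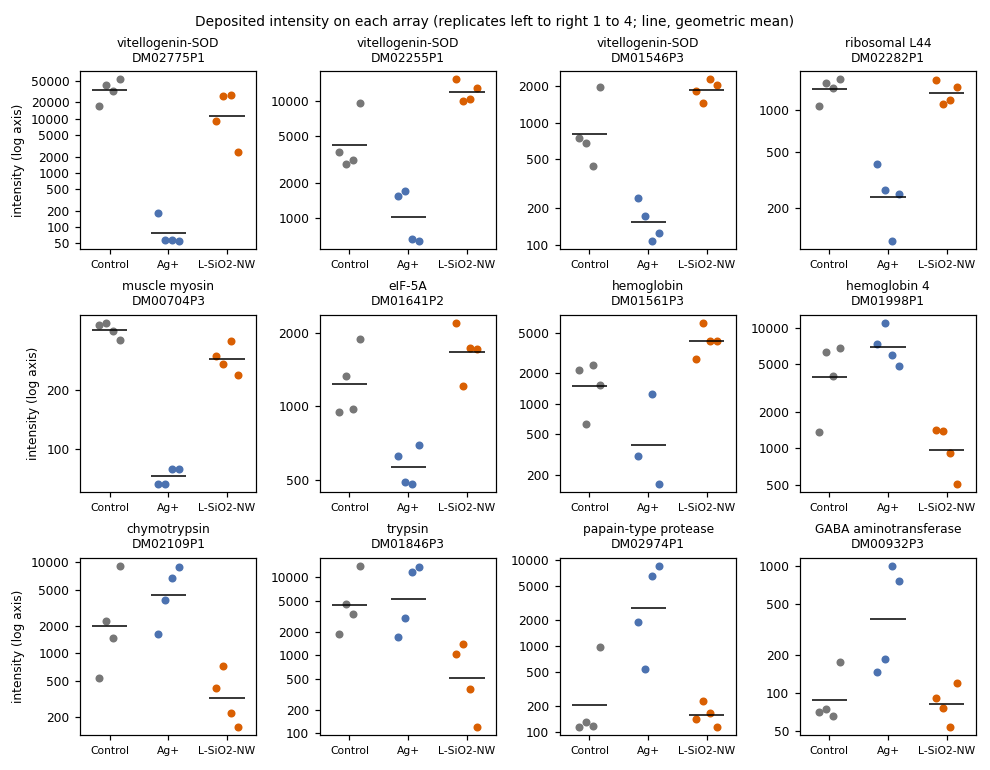
Deposited intensity (log axis) of 12 named features on each Control, Ag+ and L-SiO2-NW array, with replicates 1 to 4 from left to right in each group and a line at the geometric mean; hemoglobin DM01561P3 has no value on Ag+ 2. In the yolk, ribosomal, myosin and initiation factor panels every L-SiO2-NW array lies above every Ag+ array, and in hemoglobin 4, the proteases and 4-aminobutyrate aminotransferase the order is the opposite, with chymotrypsin at 154 to 726 in L-SiO2-NW and 1616 to 8931 in Ag+.

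Hemoglobin features split in direction. Hemoglobin carries oxygen in the hemolymph of Daphnia, and the genome of the genus holds several copies. The feature DM01561P3 read 2779, 6300, 4174 and 4154 in L-SiO2-NW against 304, 1241 and 163 on Ag+ 1, 3 and 4, a difference of 3.40 ± 0.75 (adjusted p = 0.00962, n = 4 and 3). Hemoglobin 4 (DM01998P1) went the other way, with 1422, 1385, 910 and 507 in L-SiO2-NW against 7391, 11126, 6026 and 4877 in Ag+, a difference of −3.01 ± 0.62 (adjusted p = 0.00553). Neither feature had overlapping groups. Hemoglobin DM01948P1 was higher by 1.11 ± 0.31 (adjusted p = 0.0319, at least 1.36-fold) and was dim on all Ag+ arrays.

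The 2 remaining hemoglobin features did not pass: the 2-domain subunit DM01620P3 had 0.64 ± 0.29 (adjusted p = 0.221), dim on every Ag+ array, and DM01565P1, also described as hemoglobin 4, had 0.16 ± 0.08 (adjusted p = 0.269), dim on every array that had a value (none on Ag+ 2). Of the 5 features, then, 2 were higher and 1 lower, against 3.1 and 4.45% of all features, with a median of 0.64. Relative to Control, DM01561P3 had −2.40 ± 0.75 in Ag+ (adjusted p = 0.034) and 1.00 ± 0.75 in L-SiO2-NW (adjusted p = 0.508). DM01998P1 had 0.61 ± 0.62 in Ag+ (adjusted p = 0.554) and −2.40 ± 0.62 in L-SiO2-NW (adjusted p = 0.0666). None of the hemoglobin features passed with the array floor as a covariate, where DM01561P3 had 2.37 (adjusted p = 0.245) and DM01998P1 −2.80 (adjusted p = 0.121). DM01561P3 also did not pass without Ag+ 4 (2.77, adjusted p = 0.0633), and DM01948P1 not without any of Ag+ 1, 3 and 4 and L-SiO2-NW 2 and 3.

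Of the cytosolic ribosomal protein features, parts of the machinery of protein synthesis, 10 of 27 were higher in L-SiO2-NW. Ribosomal protein L44 (DM02282P1), of the large subunit, read 1623, 1100, 1172 and 1459 in L-SiO2-NW and 411, 268, 117 and 253 in Ag+, a difference of 2.38 ± 0.34 (adjusted p = 0.000363). The P2-like protein of the ribosomal stalk (DM02189P2) differed by 2.17 ± 0.35 (adjusted p = 0.000862; 1842 to 2242 against 340 to 895). The small-subunit protein S25e (DM01989P3) differed by 2.08 ± 0.41 (adjusted p = 0.00388; 972 to 1395 against 158 to 638), and L9e (DM01592P3) by 1.29 ± 0.26 (adjusted p = 0.0046). No Ag+ array reached the lowest L-SiO2-NW array for any of them.

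Over the list 10 members were higher and 0 lower, against 3.1 and 4.45% of all features, with a median of 0.73, and 25 had values above 0. Summed over the 26 members with values on all arrays, intensity overlapped between the groups, at 24489 to 37861 in L-SiO2-NW and 19808 to 31056 in Ag+. The sum rests largely on the bright S24, which alone read 11687 to 22117 in L-SiO2-NW and 23116 and 14649 on Ag+ 1 and 2. S20 added 7344 and 6795 on Ag+ 3 and 4. The lowest differences belonged to S20 (DM01714P2, −0.57 ± 0.64, adjusted p = 0.704), S24 (DM02768P1, −0.40 ± 1.12, adjusted p = 0.903), L10a (DM01583P3, 0.10 ± 0.21, adjusted p = 0.855) and S3 (DM01569P1, 0.12 ± 0.21, adjusted p = 0.824, dim on all 8 arrays). These 4 are named after their values were seen. Against Control 24 of the 27 were lower in Ag+ (median −1.53), beside 1079 of all 14338 features (calls among the 493 not counted). In L-SiO2-NW 0 passed (median −0.54), where 0.962% of all features did. The count of higher members was 5 without Ag+ 3, without Ag+ 4, without L-SiO2-NW 3 or with the floor as covariate, and 6 when L-SiO2-NW 2 was left out.

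Of the 3 translation factors 1 was higher and 0 lower, against 3.1 and 4.45% of all features, and their median was 0.62. Initiation factor 5A (DM01641P2), which helps the ribosome through difficult peptide stretches, read 2196, 1208, 1724 and 1708 in L-SiO2-NW and 626, 488, 480 and 695 in Ag+, a difference of 1.60 ± 0.23 (adjusted p = 0.000356). Elongation factor 1-alpha (DM01547P3), which delivers aminoacyl-tRNA, had 0.62 ± 0.28 (adjusted p = 0.213), and initiation factor 4A2 (DM01590P4), an RNA helicase, had the opposite sign, −0.37 ± 0.30 (adjusted p = 0.566). The named features that follow here belong to no list, as do others described below. The translationally controlled tumor protein (DM01720P1), a growth-linked protein named for the control of its own mRNA, was higher by 2.26 ± 0.44 (adjusted p = 0.00388, n = 4 and 3) without a value on Ag+ 2. The ribosome-associated membrane protein (DM06109P3), a small protein at the protein export channel, was higher by 1.65 ± 0.31 (adjusted p = 0.0026).

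**Figure D3:**
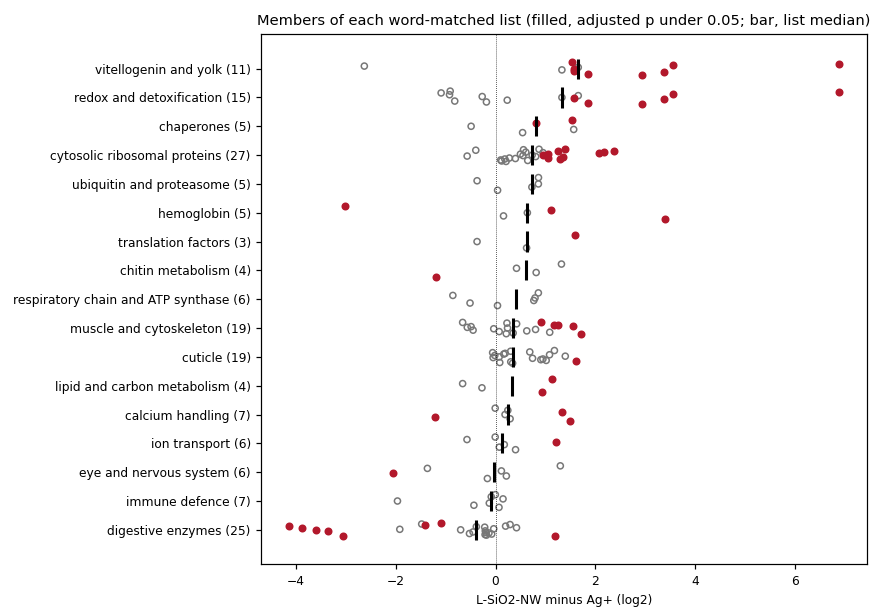
Log2 difference L-SiO2-NW minus Ag+ (x axis) of each member of 17 lists made by word match (y axis, number of members in parentheses); filled points passed, open points did not, and the bar is the list median. The yolk list has the highest median (1.66) and the digestive enzyme list the lowest (−0.39), with 7 filled points below 0.

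Of the muscle and cytoskeleton features 5 of 19 were higher in L-SiO2-NW, all of them for thick filament, myosin or titin-like proteins. The thick filament motor of muscle, myosin heavy chain (DM00704P3), read 297, 270, 354 and 237 in L-SiO2-NW and was dim on all Ag+ arrays at 66, 66, 79 and 79. The difference was 1.71 ± 0.27 (adjusted p = 0.000862, at least 2.37-fold). A nonmuscle or smooth muscle myosin heavy chain (DM02391P3) differed by 1.55 ± 0.23 (adjusted p = 0.000495; 420 to 593 against 116 to 235). Paramyosin (DM02599P2), the core of invertebrate thick filaments, differed by 1.26 ± 0.20 (adjusted p = 0.000826), and a titin-like protein (DM05957P1), an elastic filament protein, by 0.91 ± 0.23 (adjusted p = 0.0216). The first 3 also passed with the floor as covariate and without any single array of either group, whereas the titin-like protein did not pass without Ag+ 4, L-SiO2-NW 2 or L-SiO2-NW 3.

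Over the list 5 members were higher and 0 lower, against 3.1 and 4.45% of all features, with a median of 0.35. Summed intensity did not follow the count: it was 10840 to 14342 in L-SiO2-NW, 11209 and 10967 on Ag+ 1 and 2, and 17894 and 17911 on Ag+ 3 and 4, above every L-SiO2-NW array. A bright list member that is not a filament protein, fatty acid-binding protein DM02721P1, had the same pattern. It read 1671 and 2050 on Ag+ 1 and 2, 7508 and 9983 on Ag+ 3 and 4, and 1947 to 4576 in L-SiO2-NW. The sum thus does not show that filament features were higher on Ag+ 3 and 4. The 5 were 3 myosin heavy chains (DM00704P3, DM02391P3 and DM02533P1), paramyosin and the titin-like protein, and the count was 3 without L-SiO2-NW 2 or L-SiO2-NW 3. Thin filament and microtubule features did not pass, with actin (DM01552P3) at 0.63 ± 0.24 (adjusted p = 0.134), beta actin (DM02014P1) at 0.24 ± 0.30 (adjusted p = 0.738) and beta-tubulin (DM01548P2) at 0.07 ± 0.14 (adjusted p = 0.847). Myosin heavy chain features DM01518P1 (1.09 ± 0.34, adjusted p = 0.0595) and DM01615P1 (0.80 ± 0.33, adjusted p = 0.166) did not pass either. Nor did the long form of paramyosin, DM02640P3 (0.42 ± 0.17, adjusted p = 0.14). Whether the classes differ was not tested. DM02533P1 and the actin, tubulin, myosin and paramyosin features that did not pass are named after their values were seen. Against Control 15 of the 19 were lower in Ag+ (median −1.25), beside 1079 of all 14338 features (calls among the 493 not counted). In L-SiO2-NW 0 passed (median −0.53), where 0.962% of all features did. Muscle myosin DM00704P3 had −2.72 ± 0.27 in Ag+ (adjusted p = 8.21e-06) and −1.0 ± 0.27 in L-SiO2-NW (adjusted p = 0.0725).

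Calcium transport features moved in opposite directions. Calcium ATPase at 60A (DM00307P3), a pump that returns calcium to the endoplasmic reticulum, was higher by 1.49 ± 0.35 (adjusted p = 0.0131; 796 to 1182 against 247 to 619), and a second calcium-transporting ATPase (DM01730P3) by 1.32 ± 0.30 (adjusted p = 0.0111; 655 to 847 against 219 to 494). The ryanodine receptor (DM00540P2), the channel that releases calcium from that store, was lower by 1.21 on the log2 scale (−1.21 ± 0.26, adjusted p = 0.00679), at 271, 145, 123 and 385 in L-SiO2-NW and 359, 376, 735 and 559 in Ag+. Of 7 calcium features 2 were higher and 1 lower, against 3.1 and 4.45% of all features, with a median of 0.25. Calmodulin (DM02447P1), a calcium sensor, had 0.25 ± 0.17 (adjusted p = 0.46) and was dim on every Ag+ array. Both pumps missed the threshold when only the 8 arrays were fitted, DM00307P3 also without Ag+ 4, L-SiO2-NW 2 or L-SiO2-NW 3, and the receptor did with the array floor as a covariate (−1.22, adjusted p = 0.103).

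Among 5 chaperone features, which assist protein folding, 2 were higher and 0 lower, against 3.1 and 4.45% of all features, with a median of 0.81. Heat shock protein 60 (DM02811P1), the mitochondrial folding chamber, read 855, 478, 613 and 518 in L-SiO2-NW and 244, 163, 218 and 150 in Ag+, a difference of 1.52 ± 0.32 (adjusted p = 0.00662). A heat shock protein 90 of class B (DM02180P3) was higher by 0.81 ± 0.22 (adjusted p = 0.0267), and another heat shock protein 90 feature (DM01059P3) had 1.57 ± 0.60 (adjusted p = 0.126) although its arrays did not overlap, at 1768 to 2953 against 655 to 1100. Relative to Control 4 of the 5 were lower in Ag+ (median −1.44), beside 1079 of all 14338 features (calls among the 493 not counted). In L-SiO2-NW 0 passed, where 0.962% of all features did. With the array floor as a covariate neither chaperone passed, and DM02180P3 did not pass without any of Ag+ 2, 3 and 4 and L-SiO2-NW 1, 2 and 3.

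Of the digestive enzyme features 7 of 25 were lower in L-SiO2-NW than in Ag+, 1 was higher and 17 did not pass. Chymotrypsin (DM02109P1), a serine protease of the gut lumen, read 417, 726, 222 and 154 in L-SiO2-NW and 1616, 3807, 6799 and 8931 in Ag+, a difference of −3.87 ± 0.67 (adjusted p = 0.00157). A papain family cysteine protease (DM02974P1), whose database match is in the ciliate Tetrahymena, read 142, 229, 163 and 114 against 1896, 542, 6526 and 8670, a difference of −4.14 ± 0.85 (adjusted p = 0.00532). Trypsin (DM01846P3) read 1048, 1397, 372 and 120 against 1705, 2977, 11670 and 13487, a difference of −3.61 ± 0.82 (adjusted p = 0.0104). No array of one exposure reached the range of the other for these 3 enzymes, and Ag+ 3 and Ag+ 4 were the highest Ag+ arrays in each.

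Carboxypeptidase B features DM00410P1 and DM01830P1, for enzymes that trim basic residues from peptide ends, were lower as well. Not all of the 7 lower members of the list are named here. DM00410P1 stood at 57 to 111 in L-SiO2-NW and 471 to 1625 in Ag+ (−3.05 ± 0.51, adjusted p = 0.00119), and DM01830P1 at 53 to 158 against 242 to 3752 (−3.36 ± 0.78, adjusted p = 0.0117). A trypsin-like serine protease (DM03023P3) had −1.41 ± 0.31 (adjusted p = 0.00826, at least 1.42-fold), with all L-SiO2-NW arrays and 2 Ag+ arrays dim. A salivary secreted protein (DM02156P3), matched to a blood-feeding bug, had −2.92 ± 0.58 (adjusted p = 0.00397).

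These counts stand beside 4.45% of all features lower and 3.1% higher, and the median of the list was −0.39. The member that was higher was cathepsin L-1 (DM00158P2), a lysosomal and digestive cysteine protease, at 1.18 ± 0.28 (adjusted p = 0.0134). Both alpha-amylase features, for starch, had values near 0: −0.21 ± 0.16 (DM01845P3, adjusted p = 0.531) and −0.08 ± 0.08 (DM01660P4, adjusted p = 0.65, dim on all 8 arrays). Trypsin type 5 (DM01947P1) had −1.92 ± 1.16 (adjusted p = 0.387). These 4 are named after their values were seen.

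Summed over the 25 features, digestive enzyme intensity was 5983 to 8268 in L-SiO2-NW. It was 12370 and 13601 on Ag+ 1 and 2 and 40207 and 47600 on Ag+ 3 and 4. Control ranged from 6470 to 10903 on arrays 1 to 3 and reached 47690 on Control 4. The sum over 5 eye and nervous system features, without arrestin DM03055P2 (no value on Ag+ 2), was also higher on Ag+ 3 and 4 than on Ag+ 1 and 2. It was 5260 and 5546 against 1620 and 2112, and 1913 to 3238 in L-SiO2-NW. The part of the difference between these Ag+ arrays in the protease result was not tested beyond leaving out 1 array at a time. Without Ag+ 3 carboxypeptidase B DM01830P1 had −2.79 (adjusted p = 0.0542), while chymotrypsin, the papain family protease and DM00410P1 passed without any single array. When only the 8 arrays were fitted trypsin DM01846P3 had adjusted p = 0.0998, DM01830P1 0.0815 and the salivary protein 0.0534.

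The gut features had unlike positions relative to Control. Chymotrypsin had 0.76 ± 0.67 in Ag+ (adjusted p = 0.492) and −3.12 ± 0.67 in L-SiO2-NW (adjusted p = 0.0362), and trypsin DM01846P3 had 0.13 ± 0.82 (adjusted p = 0.94) and −3.48 ± 0.82 (adjusted p = 0.0454). Neither L-SiO2-NW value passed without L-SiO2-NW 1, 3 or 4, and without L-SiO2-NW 4 adjusted p was 0.155 and 0.197. Neither passed with median centring, the replicate number as a block or the array floor as a covariate. Trypsin also missed the threshold without Ag+ 2 or Ag+ 3. The papain family protease had 3.48 ± 0.85 in Ag+ (adjusted p = 0.00777) and −0.67 ± 0.85 in L-SiO2-NW (adjusted p = 0.764). Carboxypeptidase B DM00410P1 had 1.82 ± 0.51 in Ag+ (adjusted p = 0.018) and −1.23 ± 0.51 in L-SiO2-NW (adjusted p = 0.232). Over the list 5 members were higher and 3 lower in Ag+ and 3 were lower in L-SiO2-NW. Of all 14338 features these counts were 1478, 1079 and 53.

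**Figure D4:**
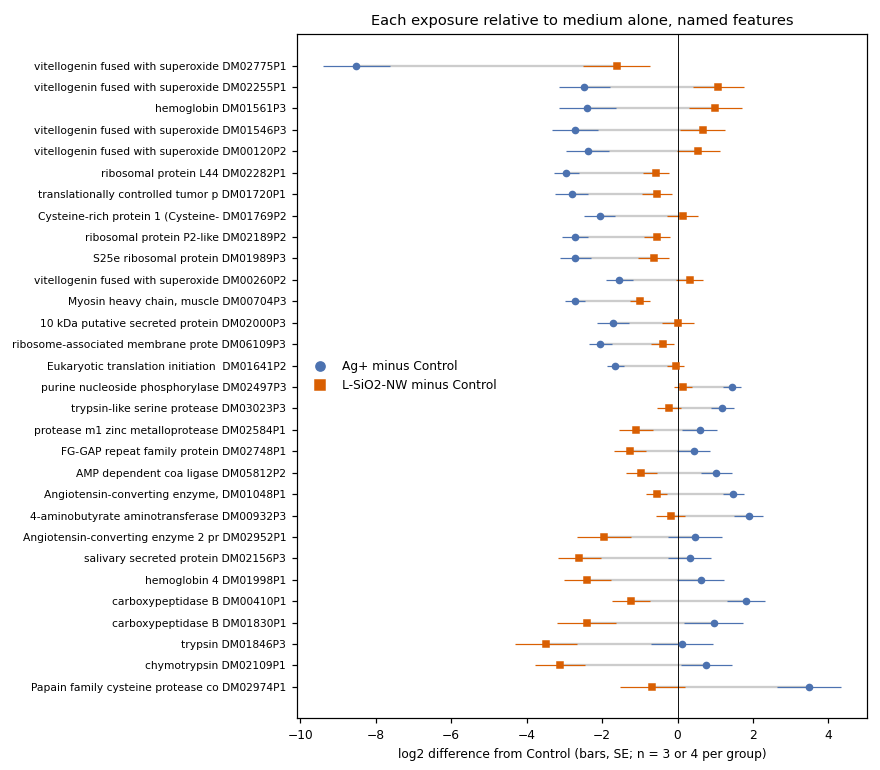
Log2 difference from Control (x axis, bars are SE, n = 4 per group with 3 Ag+ values for DM01561P3 and DM01720P1) of the 15 named features most raised and the 15 most lowered in L-SiO2-NW relative to Ag+ (y axis, ordered by that difference). Blue circles are Ag+ and orange squares are L-SiO2-NW, and both share the Control arrays. DM02775P1 lies at −8.51 in Ag+ and −1.62 in L-SiO2-NW, and chymotrypsin at 0.76 and −3.12.

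Enzymes of peptide and transmitter metabolism were among the other features lower in L-SiO2-NW. 4-aminobutyrate aminotransferase (DM00932P3), the enzyme that degrades the transmitter GABA, read 92, 76, 54 and 120 in L-SiO2-NW and 147, 184, 999 and 761 in Ag+, a difference of −2.06 ± 0.38 (adjusted p = 0.00241). Angiotensin-converting enzyme (DM01048P1), a peptidase that removes dipeptides from peptide hormones, was dim on all L-SiO2-NW arrays, with −2.03 ± 0.28 (adjusted p = 0.00026, at least 3.02-fold), and a related precursor (DM02952P1) had −2.41 ± 0.71 (adjusted p = 0.0434). Purine nucleoside phosphorylase (DM02497P3), of purine salvage, had −1.31 ± 0.24 (adjusted p = 0.00212), and the AMP-dependent CoA ligase (DM05812P2), a name for enzymes that activate acids with CoA, −1.99 ± 0.41 (adjusted p = 0.0058, at least 3.08-fold). A zinc metalloprotease of family M1 (DM02584P1) was dim on all L-SiO2-NW arrays, with −1.68 ± 0.46 (adjusted p = 0.0289, at least 1.82-fold), and an FG-GAP repeat protein (DM02748P1) had −1.68 ± 0.43 (adjusted p = 0.0203).

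In each of these 7 features Ag+ 3 and Ag+ 4 were the highest Ag+ arrays. The related precursor DM02952P1, the metalloprotease DM02584P1 and the FG-GAP protein DM02748P1 did not pass without Ag+ 3 or without Ag+ 4. Leaving out L-SiO2-NW 1 also ended these 3 calls, as did L-SiO2-NW 4 for the precursor and the metalloprotease, L-SiO2-NW 3 for the same pair and L-SiO2-NW 2 for the metalloprotease. Compound eye opsin (DM02717P2), a visual pigment, had −1.37 ± 0.52 (adjusted p = 0.125; 163 to 596 against 221 to 2209, overlapping). Of 6 eye and nervous system features 0 were higher and 1 was lower, the aminotransferase, against 3.1 and 4.45% of all features. The median was −0.02. Above 0 were 3 of the 6, up to 1.30 for arrestin DM03055P2, which did not pass and has no value on Ag+ 2. Relative to Control 3 of the 6 were higher in Ag+ and 1 in L-SiO2-NW, beside 1478 and 85 of all 14338 features.

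The named features that were higher also included secreted, metabolic and ion transport proteins. A 10 kDa putative secreted protein (DM02000P3) read 13423, 4579, 14575 and 12932 in L-SiO2-NW and 4011, 3169, 2450 and 3056 in Ag+, a difference of 1.71 ± 0.43 (adjusted p = 0.0182). Cysteine-rich protein 1 (DM01769P2) was higher by 2.20 ± 0.41 (adjusted p = 0.00263). Carbonic anhydrase (DM02267P1), which interconverts carbon dioxide and bicarbonate and feeds ion exchange, read 7318 to 9479 against 2366 to 5980, a difference of 1.22 ± 0.29 (adjusted p = 0.0138). Mitochondrial malate dehydrogenase (DM02933P3), of the citric acid cycle, was higher by 1.13 ± 0.23 (adjusted p = 0.00488) and oxoglutarate dehydrogenase (DM00004P3), of the same cycle, by 0.94 ± 0.28 (adjusted p = 0.0477). The secreted protein did not pass without Ag+ 3 or L-SiO2-NW 3, carbonic anhydrase not without L-SiO2-NW 2, and oxoglutarate dehydrogenase not without any single array other than Ag+ 1.

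The sodium pump, by which Daphnia and other animals drive sodium uptake, did not pass in any of its 3 features: alpha subunits DM02354P1 (−0.57 ± 0.26, adjusted p = 0.222), DM01589P2 (0.08 ± 0.14, adjusted p = 0.84, dim on all 8 arrays) and DM02022P2 (adjusted p = 0.855). Of 6 ion transport features 1 was higher and 0 lower, against 3.1 and 4.45% of all features, with a median of 0.13. Of 15 redox and detoxification features 6 were higher and 0 lower, against the same shares. All 6 are vitellogenins fused with superoxide dismutase, already counted among the yolk features. The 7 redox and detoxification members that are not vitellogenin did not pass. Cytochrome P450 CYP4AB2 (DM02419P1) had −1.09 (adjusted p = 0.123) and thioredoxin reductase 1 (DM00670P2) −0.18 (adjusted p = 0.786). DM02022P2, DM02419P1 and DM00670P2 are named after their values were seen.

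Against the same 3.1 and 4.45% of all features, the other lists held few calls. Of 19 cuticle features 1 was higher, cuticle protein 7 (DM02085P1; 1.61 ± 0.49, adjusted p = 0.0491), and the median was 0.34. Of 4 chitin features 1 was lower, a chitin-binding protein with an LDLa domain (DM00251P1; −1.19 ± 0.35, adjusted p = 0.044), with a median of 0.62. Neither passed without Ag+ 3 or without any of L-SiO2-NW 1, 2 and 3, nor did cuticle protein 7 without Ag+ 1 or Ag+ 2 and the chitin-binding protein without Ag+ 4. Among the 6 respiratory chain features of the list 0 passed, and the mitochondrially encoded NADH dehydrogenase subunit 5 (DM02802P1) had −0.86 ± 0.26 (adjusted p = 0.0516) beside the nuclear-encoded subunit Va of cytochrome c oxidase (DM06075P3) at 0.86 ± 0.29 (adjusted p = 0.0814). The word match left out cytochrome oxidase subunit I (DM01562P1), which was lower, at −1.32 ± 0.40 (adjusted p = 0.049), with overlapping arrays. Relative to Control it had 2.08 in Ag+ (adjusted p = 0.00152) and 0.76 in L-SiO2-NW (adjusted p = 0.353), and it is named after its values were seen. None of 5 ubiquitin and proteasome features or 7 immune defence features passed, with medians of 0.73 and −0.09, and 2 of 4 lipid and carbon metabolism features were higher (median 0.33).

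The 3 largest rises among features without a described match are given by ID. DM00429P1 read 64659, 65535, 49900 and 65535 in L-SiO2-NW and 1548, 95, 97 and 72 in Ag+, a difference of 8.13 ± 0.70 (adjusted p = 2.18e-06). It lay at the ceiling of 65535 on 2 L-SiO2-NW arrays and all Control arrays and was dim on 3 Ag+ arrays, so the size of the difference is limited on both sides. DM02924P1 differed by 8.00 ± 1.14 (adjusted p = 0.000356; 27962, 65535, 50032 and 5773 against 132, 61, 89 and 58), and DM02350P1 by 5.11 ± 0.38 (adjusted p = 4.11e-07; 39730 to 65535 against 1196 to 3758). The same limit holds for DM02924P1, at the ceiling on L-SiO2-NW 2 and dim on 3 Ag+ arrays, and at the upper side for DM02350P1, at the ceiling on L-SiO2-NW 2 and 3, so the order of the 3 is not settled. Relative to Control DM02350P1 had −5.22 ± 0.38 in Ag+ (adjusted p = 2.8e-07) and −0.11 ± 0.38 in L-SiO2-NW (adjusted p = 0.93). It read 40344 on Control 3 and lay at the ceiling on the other Control arrays. The size of both differences is therefore limited, and the value near 0 does not show equal levels.

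The 3 largest falls without a described match were DM11495P2, DM08434P2 and DM05827P3. DM11495P2 read 81, 259, 706 and 105 in L-SiO2-NW and 6119, 21023, 5689 and 43831 in Ag+, a difference of −6.14 ± 1.18 (adjusted p = 0.00318). Control arrays read 842, 83, 61 and 124, so the Ag+ arrays alone were high among these 3 groups. DM08434P2 had −4.46 ± 0.64 (adjusted p = 0.000363; 54 to 448 against 1836 to 3777), and DM05827P3, whose listed match misses the limit of 0.001, had −4.15 ± 0.56 (adjusted p = 0.00023; 55 to 232 against 647 to 5923). All L-SiO2-NW arrays lay below all Ag+ arrays for each of them.

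L-SiO2-NW was also set against the other silica nanowire and the other long nanowire. Against the short silica nanowire 5 features passed (0.0349%; 825 at unadjusted p under 0.05), 1 higher and 4 lower. Of the 90 named features 1 passed, DM08434P2, with −4.13 ± 0.64 (adjusted p = 0.022; intensity 156 ± 195 against 2676 ± 1410, SD, n = 4). Vitellogenin DM02775P1 had 3.38 ± 0.89 (adjusted p = 0.416), with 16437 ± 12600 against 1439 ± 908, and chymotrypsin had −3.47 ± 0.67 (adjusted p = 0.0692). A difference of several log2 units thus can miss the threshold in this contrast, and the misses do not show that the silica groups were alike.

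Against the long PVP nanowire 686 features passed (4.78%), 385 higher in L-SiO2-NW and 301 lower, and the floors of these groups did not overlap either (41 to 43 against 48 to 50). Of the 90 named features 13 passed, 8 higher and 5 lower. Yolk features DM02255P1 (2.82 ± 0.68, adjusted p = 0.0215), DM01546P3 (2.52 ± 0.60, adjusted p = 0.0213), DM01556P2 (2.99 ± 0.81, adjusted p = 0.0397), DM05876P2 (1.40 ± 0.30, adjusted p = 0.0116) and DM01774P1 (1.29 ± 0.37, adjusted p = 0.048) were higher, whereas DM02775P1 had 0.08 ± 0.89 (adjusted p = 0.979). Chymotrypsin (−2.87 ± 0.67, adjusted p = 0.0192) and the salivary protein (−2.17 ± 0.58, adjusted p = 0.0354) were lower. Carbonic anhydrase was higher by 1.31 ± 0.29 (adjusted p = 0.0136). Against the 2 nanowire groups together 14 calls of named features were made, against 1 with the array floor as a covariate, 5 without L-SiO2-NW 1 and 4 without L-SiO2-NW 4.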

How the data were processed

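The authors' deposited intensity matrix holds single-channel intensities of 14338 features on 24 arrays, not scaled between arrays; scanner settings and any background correction are not stated in those sources. RNA was prepared with Trizol and labelled with the Agilent Quick-Amp kit, per the labels' protocols. The log2 ratios over medium in the authors' deposited table are present for some features only, and how they were tested is not stated. The other values used from that table, per the file headers, are expectation values of database searches, descriptions and probe sequences.

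The 310 zeros on Ag+ 2 were treated as missing. Intensities were corrected with normexp (offset 50), log2-transformed and quantile-normalised over the 24 arrays, which pulls differences of dim features toward 0. limma 3.58.1 in R 4.3.3 fitted 1 mean per group over all 24 arrays, with eBayes without trend (prior df 1.59), two-sided, and Benjamini-Hochberg adjustment over 14338 features at 0.05; a feature passes below that. The test was checked on simulated data. Bounds ("at least") raise dim values to the dim limit on the normalised scale and are given where all arrays of a group are dim, or where some are and the value moves by over 0.5. An exact test of 4 against 4 arrays cannot go below p = 0.0286. The labels do not say whether replicates were separate cultures, so p-values measure the spread between these samples, which may be technical. The number of arrays limits the precision.

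Features were named by rule: of those passing with no overlap between groups and naming a protein, the 15 largest rises and 15 largest falls; all vitellogenin and hemoglobin features; the 4 smallest p of each list; and 3 rises and 3 falls without a described match, 90 in all. A few matches with a value of 0.001 or less carry the authors' own mark of non-significance (59 of 493), DM05876P2, DM05957P1, DM06109P3 and DM05812P2 among them. The algal food list had 0 members. The members and lists were chosen with earlier results of these data known. Alternatives were other background corrections, scalings, dim filters, array sets, weights, variance models, the array floor or a residual component as covariate, the replicate block, and leaving out each array.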

Additional observations from a re-analysis of the deposited data

Results flagged for a closer look

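Of 264 groups of 4 arrays examined over the 90 named features (normalised log2 levels in L-SiO2-NW, Ag+ and Control), 18 held an array whose gap to the nearest other array, divided by the range of the group, reached Dixon's limit of 0.829. That is 6.82%, where chance gives about 5%.

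In the compared groups 5 were marked. Vitellogenin DM02775P1 was high on Ag+ 1 (ratio 0.97; intensity 184 against 55 to 57), and undescribed DM00429P1 was high on the same array (0.881; 1548 against 72 to 97). Initiation factor 4A2 DM01590P4 was high on Ag+ 4 (0.829; 1397 against 564 to 883), and the titin-like DM05957P1 was low on Ag+ 4 (0.856; 303 against 467 to 754). Undescribed DM08434P2 was high on L-SiO2-NW 2 (0.935; 448 against 54 to 63). DM02775P1, DM00429P1 and DM08434P2 passed without those arrays, and the titin-like feature did not pass without Ag+ 4.

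In Control 13 were marked. On Control 4 the gut proteases carboxypeptidase B DM00410P1 (0.883; 668 against 94 to 135) and papain family DM02974P1 (0.906; 983 against 113 to 130) were high, with 4-aminobutyrate aminotransferase DM00932P3 (0.93; 176 against 66 to 75) and the phage-related lysozyme DM02265P4 (0.91; 2234 against 178 to 269), and the isomerase DM00142P3 was low (0.881; level 7.56 against 8.23 to 8.32, log2). On Control 1 the 10 kDa secreted protein DM02000P3 was high (0.928; 17826 against 5457 to 7607). Low on Control 1 were hemoglobin 4 DM01998P1 (0.871; 1364 against 4038 to 6812), opsin DM02717P2 (0.87; 100 against 132 to 226), DM05827P3 (0.843; 253 against 751 to 1407) and ubiquitin-conjugating enzyme DM00235P1 (0.963; level 7.59 against 8.31 to 8.34, log2). On Control 3 polyubiquitin DM01627P1 (0.985; 53 against 8807 to 10908), ubiquitin-conjugating enzyme DM00326P3 (0.873; 82 against 359 to 758) and DM02350P1 (0.872; 40344 against 65535) were low.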

How the results depend on the processing

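No named difference between L-SiO2-NW and Ag+ that passed turned its direction under any of the 22 alternatives. The 1082 passing features became 704 (233 lower) with a common 75th percentile over bright features, 530 (252 higher, 278 lower, of 3118 tested) with a mean intensity over 200, 648 (332 lower) from the 8 arrays alone and 376 (120 higher, 256 lower) with the array floor as a covariate. That covariate left 21 of 46 list calls, 26 of 54 named calls and 1 of 14 against the other nanowires, which array weights moved to 29. Part of this follows from the design, since floors separate the groups; the cause otherwise was not tested. Higher features made up 41% as reported and 66.9% with the bright scaling. Leaving out 1 array gave 580 to 1344 passing features (237 to 524 higher, 343 to 820 lower; lowest without Ag+ 3, highest without Ag+ 1), 30 to 51 list calls (lowest without L-SiO2-NW 3), 43 to 58 named calls, 55 to 64 against Control (61 as reported) and 4 to 16 against the other nanowires. Same-numbered arrays of L-SiO2-NW and Ag+ deviated with r = −0.173, −0.418, −0.332 and −0.217, so they did not deviate alike. Between differently numbered arrays r ran from −0.38 to 0.44, and whether samples were paired in another order was not tested. The replicate number as a block gave 826 passing features (336 higher, 490 lower), 43 list calls and 52 named calls, with 4 named calls lost and 2 gained. Of all features 58% were dim on all 8 arrays.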
